A study of Rattus norvegicus with 4 samples.

Results

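The genes of the mitochondrial ribosome, Mrpl for its large subunit and Mrps for its small subunit, were followed across 4 one-colour microarrays of rat skeletal muscle. Members were all genes whose symbol is Mrpl or Mrps followed by a number and at most 1 letter, with the probes named through a RefSeq gene table. They were 66 of the 26624 genes or unnamed accessions on the array, 42 of them Mrpl and 24 Mrps. The proteins of Mrps18a and Mrps30 sit in the large subunit in spite of their names. All 66 were among the 13326 genes that passed the background filter, and all were well above background on all 4 arrays. The RefSeq table holds 75 symbols of this form. The other 9, Mrpl28, Mrpl33, Mrpl39, Mrpl43, Mrps6, Mrps7, Mrps10, Mrps21l and Mrps28, had no probe matched by accession and were not analysed here.

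The rats were males aged 15 weeks. SPORTS is a hyperactive mutant rat on a Wistar background. The groups were Wistar wild type (2 arrays), exercised SPORTS (1 array) and sedentary SPORTS (1 array). The series describes the wild-type animals as sedentary, and its labels name no drug and no further allele. The labels used here do not name the muscle or the kind and length of exercise, nor say whether the wild-type arrays came from separate animals. The p-values below therefore measure only the spread between these arrays. Between the wild-type arrays that spread may be technical, and between the SPORTS arrays it includes the exercise state.

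Mitochondria carry their own ribosome, which translates the few membrane subunits of the respiratory chain that the mitochondrial genome encodes. All of its proteins are encoded in the nucleus, made in the cytosol and imported, and its ribosomal RNAs come from mitochondrial DNA. The large subunit forms the peptide bond and guides the new chain to the inner membrane, and the small subunit reads the mRNA. Many of these proteins have bacterial counterparts, and others are found only in mitochondria.

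Levels are given as log2 of the processed signal minus the 75th percentile of the same array, so that 0 is the signal of a probe at that percentile and a difference of 1 is 2-fold. From 46.0% (exercised SPORTS) to 50.3% (sedentary SPORTS) of probes were well above background, and no probe was saturated. The exercised array was the dimmest before scaling. Its median probe signal was 60.9, against 90.4 and 89.1 in wild type and 89.6 in sedentary SPORTS muscle. Its 75th percentile was 864, against 1096 and 1082 in wild type and 1111 in sedentary SPORTS muscle. Skeletal muscle markers were bright on all 4 arrays (6 of 6 on the array above background, summed log2 level 9.94 to 10.57), and 0 of 3 liver markers passed the background filter. The fibre markers differed between the SPORTS arrays: the summed level of 9 fast fibre markers was 10.11 and 10.14 in wild type, 11.53 in exercised and 8.14 in sedentary SPORTS muscle. That of 9 slow fibre markers was 11.03 and 10.99 in wild type, 8.80 in exercised and 10.94 in sedentary SPORTS muscle. Markers of fibroblasts (6 of 6), tendon (4 of 4) and macrophages (5 of 5) were all at least 2-fold lower on the exercised than on the sedentary SPORTS array. The summed level of the fibroblast markers was 8.039 and 8.004 in wild type, 6.16 in exercised and 7.55 in sedentary SPORTS muscle. That of the tendon markers was 6.48 and 6.36, 3.60 and 5.44 in the same order, and that of the macrophage markers 4.97 and 4.33, 3.09 and 5.46. In 3 of 4 tendon markers both SPORTS arrays lay at least 2-fold below both wild-type arrays. The part of these differences in the results below was not tested. In such bulk samples fewer cells of a type and less RNA per cell cannot be told apart.

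Member signals before scaling ran from 127 to 74181, with medians of 8386 and 7942 in wild type, 7291 in exercised and 8995 in sedentary SPORTS muscle. Mrpl12, the stalk protein that recruits translation factors and also binds mitochondrial RNA polymerase, had a bright probe, at 5.85 and 5.87 in wild type, 6.02 in exercised and 6.06 in sedentary SPORTS muscle. Both SPORTS values lay above both wild-type values, by little. Mrpl47, an exit tunnel protein, had the dimmest probe, at -2.16 and -2.35 in wild type, -2.77 in exercised and -2.88 in sedentary SPORTS muscle. Brightness depends on the probe, so these levels do not rank the genes.

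The wild-type arrays gave nearly the same member levels. Their pooled SD was 0.06 on the log2 scale over the members, against 0.20 over all genes tested and 0.12 over genes above background on all 4 arrays. No member was 2-fold apart between them. The widest gap was that of Mrpl10, at the base of the stalk, at 4.13 and 4.49 in wild type, 4.04 in exercised and 4.33 in sedentary SPORTS muscle. In 8 members with 8 to 10 repeat spots on each array, the SD between spots of 1 array ran from 0.02 to 0.08. Over all 4 arrays the members' range had a median of 0.33, and it was under 0.5 for 51 of 66. Mrpl1, the counterpart of a bacterial stalk protein, was the steadiest, at 2.97 and 2.98 in wild type, 2.97 in exercised and 2.97 in sedentary SPORTS muscle. Mrpl52, a large-subunit protein with no bacterial counterpart, had the widest range, 2.22.

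**Figure D1:**
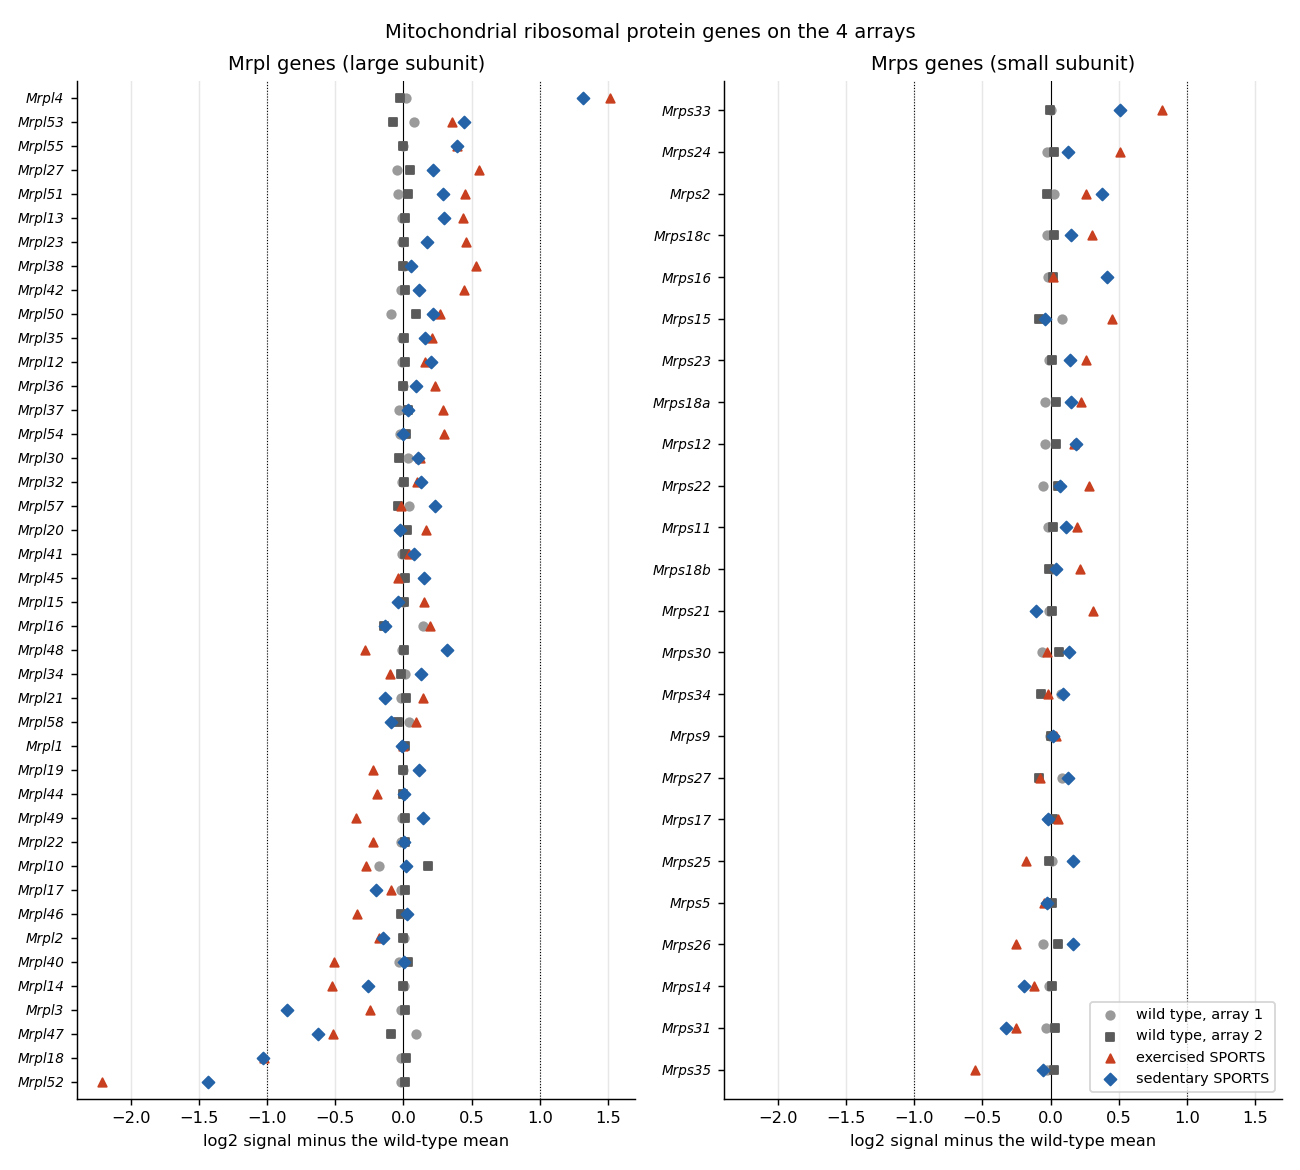
Each row is 1 of the 66 genes, and the horizontal axis is the log2 signal on each array minus the mean of the 2 wild-type arrays, with dotted lines at 2-fold. Grey points are the wild-type arrays, red triangles the exercised and blue diamonds the sedentary SPORTS array; most genes stay within 0.5, and Mrpl4, Mrpl18 and Mrpl52 pass 2-fold on both SPORTS arrays.

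The first question was whether muscle of SPORTS rats differed from wild type whatever the exercise state. In 3 genes of the large subunit, the SPORTS and wild-type arrays did not overlap and were separated by a gap of 2-fold or more. Mrpl4, counterpart of a bacterial protein that lines the exit tunnel, was at 1.17 and 1.13 in wild type, 2.67 in exercised and 2.47 in sedentary SPORTS muscle. Mrpl18, counterpart of the bacterial protein that binds the 5S ribosomal RNA and part of the central protuberance, was at 3.46 and 3.50 in wild type, 2.46 in exercised and 2.46 in sedentary SPORTS muscle. Mrpl52 was at -0.10 and -0.07 in wild type, -2.29 in exercised and -1.52 in sedentary SPORTS muscle. Mrpl4 was thus high in both SPORTS arrays, Mrpl18 was low in both by the same amount, and Mrpl52 was low in both, most on the exercised array. The 3 genes are 4.55% of the members. Among all genes tested 1.92% were so far apart, and among genes above background on all 4 arrays 0.932%. On the array median, or with the normexp background correction, the gap of Mrpl18 was under 2-fold, which left 2 genes, Mrpl4 and Mrpl52.

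The limma fit of 2 SPORTS against 2 wild-type arrays left 2 residual degrees of freedom. Its spread included the difference between the exercised and the sedentary SPORTS array, so an absence of calls does not show that the genotypes were alike. None of the 66 members was called at an adjusted p below 0.05. The share over all genes was 0.00%, and at an unadjusted p below 0.05 the counts were 6 members and 982 genes. The fitted log2 differences were 1.42 ± 0.15 (SE) for Mrpl4 (adjusted p = 0.322), -1.03 ± 0.13 for Mrpl18 (adjusted p = 0.331) and -1.82 ± 0.32 for Mrpl52 (adjusted p = 0.466). Each of these genes was measured by 1 probe. With only 1 SPORTS array set against the wild-type pair, the fit called 4 members without the exercised and 22 without the sedentary SPORTS array, which are the contrasts given below.

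**Figure D2:**
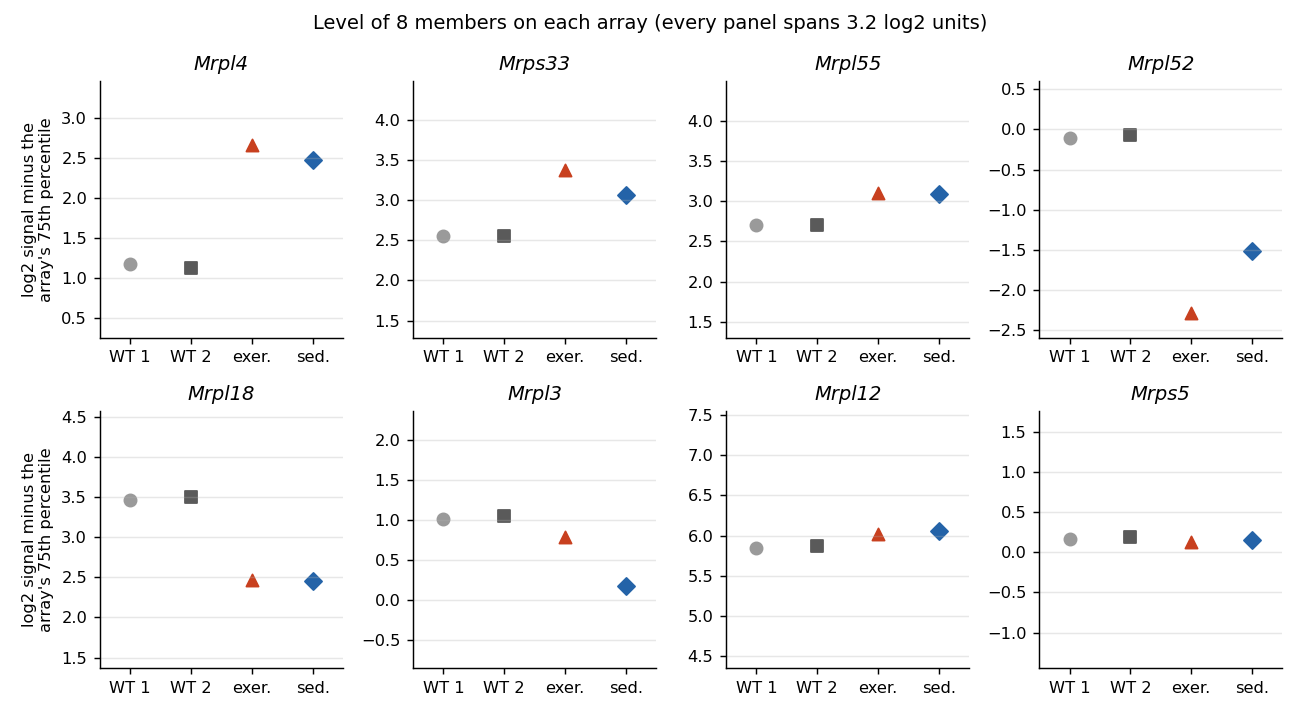
Level of 8 genes on each array, as log2 signal minus the 75th percentile of the array, with 1 point per array and the same span of 3.2 log2 units in every panel. Mrpl4, Mrps33 and Mrpl55 lie higher, and Mrpl52, Mrpl18 and Mrpl3 lower, on both SPORTS arrays than on both wild-type arrays, while the 4 points of Mrpl12 and Mrps5 lie close together.

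Smaller shifts were common. Both SPORTS values lay on one side of both wild-type values in 38 of 66 members (57.6%), against 43.7% of all genes tested. They lay above in 27 members and below in 11, where the shares over all genes were 21.4% above and 22.3% below. That split followed the scaling: it was 40 above and 5 below on the array median (all genes 30.6% and 13.9%) and 21 and 16 on the 75th percentile over probes above background on all arrays (15.7% and 29.3%). After quantile normalization it was 20 and 17 (20.2% and 23.1%), and after normexp 25 and 13 (19.9% and 21.5%). Without the sedentary SPORTS array the SPORTS side is a single value, and 60 members (90.9%) and 92.2% of all genes lay outside the wild-type pair. Mrps33, a small-subunit protein with no bacterial counterpart, was at 2.56 and 2.55 in wild type, 3.37 in exercised and 3.07 in sedentary SPORTS muscle, a log2 difference of 0.67 ± 0.17 (adjusted p = 0.604). Mrpl55, a large-subunit protein, was at 2.70 on both wild-type arrays, 3.10 in exercised and 3.09 in sedentary SPORTS muscle. Its arrays formed 2 tight pairs with no overlap. Mrpl3, counterpart of a bacterial protein near the peptidyl transferase centre, was at 1.01 and 1.04 in wild type, 0.78 in exercised and 0.18 in sedentary SPORTS muscle, lowest on the sedentary one. Mrpl14, which lies at the face between the subunits, was at 5.40 and 5.39 in wild type, 4.88 in exercised and 5.14 in sedentary SPORTS muscle.

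The steady genes included proteins at the core of the small subunit. Mrps5, at the mRNA entry, was at 0.17 and 0.19 in wild type, 0.13 in exercised and 0.15 in sedentary SPORTS muscle. Mrps12, the decoding centre protein, was at 3.41 and 3.49 in wild type, 3.63 in exercised and 3.64 in sedentary SPORTS muscle. Both genes ranged over less than 0.25 over the 4 arrays.

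Members with a match to any motif searched below were ranked by the size of their larger difference from wild type on either SPORTS array. The promoters of the first 3, Mrpl52, Mrpl4 and Mrpl3, are shown. A match was thus a condition of the choice, and in these 3 it is to an Ets-type motif. The sequences are from RefSeq, build GRCr8, all on the plus strand, from 250 bases before to 50 after the gene's start. They lie at chr15:31852686-31852985 for Mrpl52, chr8:27815521-27815820 for Mrpl4 and chr8:114548720-114549019 for Mrpl3. Capitals mark CCGGAAG, or CTTCCGG where the match is on the other strand.
Mrpl52: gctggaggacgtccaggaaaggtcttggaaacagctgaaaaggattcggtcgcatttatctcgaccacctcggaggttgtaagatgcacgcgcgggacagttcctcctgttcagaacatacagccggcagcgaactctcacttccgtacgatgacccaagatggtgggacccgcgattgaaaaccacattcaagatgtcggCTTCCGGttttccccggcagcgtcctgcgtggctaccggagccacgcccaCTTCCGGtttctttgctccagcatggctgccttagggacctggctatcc
Mrpl4: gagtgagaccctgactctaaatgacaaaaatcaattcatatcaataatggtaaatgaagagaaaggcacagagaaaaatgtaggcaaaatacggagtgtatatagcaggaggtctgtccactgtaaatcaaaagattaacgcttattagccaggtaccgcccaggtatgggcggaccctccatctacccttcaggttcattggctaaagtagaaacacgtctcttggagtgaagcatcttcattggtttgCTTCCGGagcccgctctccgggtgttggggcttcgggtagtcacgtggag
Mrpl3: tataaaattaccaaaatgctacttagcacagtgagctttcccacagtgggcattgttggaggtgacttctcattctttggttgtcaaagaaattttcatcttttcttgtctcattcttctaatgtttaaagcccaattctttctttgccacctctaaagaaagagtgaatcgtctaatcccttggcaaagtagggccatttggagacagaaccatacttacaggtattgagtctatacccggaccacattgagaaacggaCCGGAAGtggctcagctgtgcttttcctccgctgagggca
Mrpl52 has matches 49 bases before and 1 base after its start, Mrpl4 at its start and Mrpl3 at 10 bases after it, counted to the first base of the match.

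The motifs of 3 factors known to act on nuclear genes for mitochondrial proteins were searched on both strands of the promoters, which 54 of the 66 members have in that table. The Ets-type motif CCGGAAG was in the promoters of 19 members (35.2%), against 19.4% of the genes tested and 9.63% of all genes in the table. YY1's AAGATGGCG was in 8 members (14.8%), among them Mrpl37, Mrpl42 and Mrps30, against 3.78% and 1.99%. NRF-1's GCGCATGCG was in 5 members (9.26%), Mrpl17, Mrpl22, Mrpl32, Mrpl44 and Mrps18b, against 3.41% and 1.70%. Matches to GCGCATGCG on opposite strands overlapped in 4 of these members, all but Mrpl22. CCGGAAG can run into AAGATGGCG through shared letters, and matches to these 2 motifs overlapped in 0 members. At least 1 motif was in 28 members (51.9%), against 24.5% and 12.4%. The windows of Mrpl18 and Mrps33 held none of these letter strings. These are matches of letters, with no measurement of binding.

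**Figure D3:**
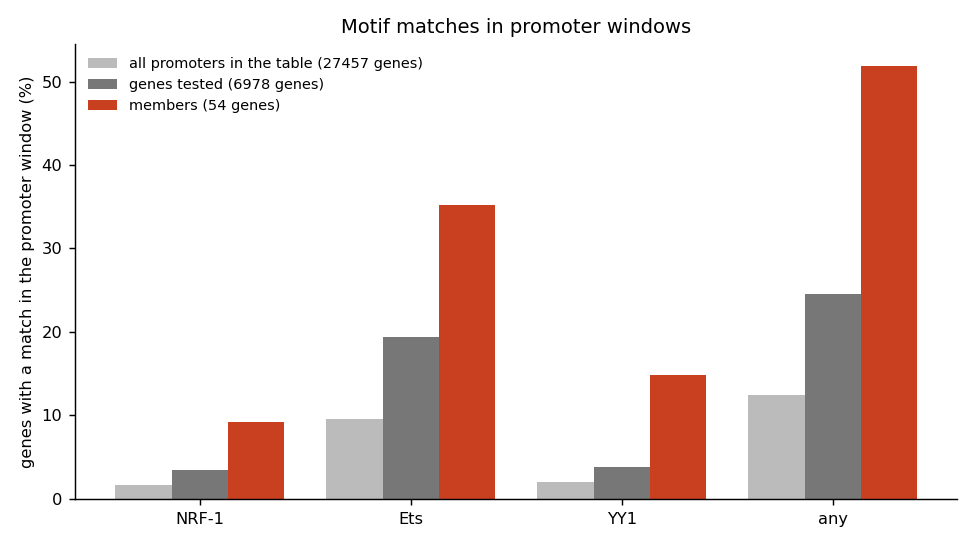
Share of genes (%) with a match to each motif in the window from 250 bases before to 50 after the start, for all genes in the promoter table, the genes tested here and the members. Each member bar is the tallest of its group, from 9.26% for NRF-1 to 51.9% for any of the motifs.

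The next comparison set the sedentary SPORTS array against wild type, both of which the series describes as sedentary. In a 3-group limma model, whose spread came from the wild-type pair alone with 1 residual degree of freedom, 4 of 66 members were called (6.06%), 1 higher and 3 lower. The share over all genes was 6.27% (2.82% higher, 3.45% lower), so the members' share was near the background. Mrpl4 rose by a log2 difference of 1.32 ± 0.07 (2.49-fold, adjusted p = 0.0343). Mrpl52 was lower by -1.43 ± 0.06 (adjusted p = 0.0327), Mrpl18 by -1.03 ± 0.07 (adjusted p = 0.0383) and Mrpl3 by -0.85 ± 0.06 (adjusted p = 0.0403). All 4 are large-subunit genes, and 0 of 24 Mrps genes were called (4 at an unadjusted p below 0.05). Without the filter on dim genes no member was called, with adjusted p from 0.0755 to 0.0948 for these 4. With a variance trend 12 members were called (18.2%, all genes 21.1%), with normexp 8 (12.1%, all genes 18.7%), and over genes above background on all arrays 9 (13.6%, all genes 18.4%), each share below that of all genes, with the difference not tested.

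Other members of this contrast did not pass the test. Mrps33 differed by 0.51, Mrpl53 at the base of the stalk by 0.45, Mrps16 by 0.41 and Mrps2 by 0.38, while Mrpl47 differed by -0.63 and Mrps31 by -0.33. Mrps16, a small-subunit protein whose gene is mutated in a human mitochondrial disease, was at 4.22 and 4.26 in wild type, 4.26 in exercised and 4.65 in sedentary SPORTS muscle. Only its sedentary SPORTS value stood apart, and its second probe showed a similar difference (0.37).

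The exercised SPORTS array against wild type, in the same model, differed in both genotype and exercise. Of the 66 members 22 were called (33.3%), 13 higher and 9 lower, against 53.3% of all genes (27.3% called higher). The members' share lay below that of all genes with the main scaling, and the difference between the shares was not tested. On the array median, and with a variance trend, the members' share did not lie below that of all genes. Which way the called members went followed the scaling. Scaling on the array median shifted the median of all genes from 0.00 to 0.23. Scaling on the 75th percentile over probes above background on all arrays shifted it to -0.14. The split was 36 higher and 4 lower under the former, 9 and 18 under the latter, 8 and 16 after quantile normalization, 14 and 7 after normexp. Without the filter on dim genes it was 2 and 2, with adjusted p of at most 0.0252 for Mrpl18, 0.0204 for Mrpl4, 0.0197 for Mrpl52 and 0.0299 for Mrps33. Those 4 were called under each of the 10 alternatives with a test.

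Mrpl52 fell by 2.21 on the log2 scale (SE 0.06, 4.62-fold lower, adjusted p = 0.00426). Mrpl4 rose by 1.51 ± 0.07 (2.86-fold, adjusted p = 0.00473), Mrpl18 changed by -1.02 ± 0.07 (adjusted p = 0.00638) and Mrps33 by 0.82 ± 0.06 (adjusted p = 0.00788). On the sedentary SPORTS array Mrpl52, Mrpl4 and Mrpl18 were called too, and Mrps33 missed the threshold (adjusted p = 0.0533). Both contrasts share the wild-type arrays, so the values are given side by side only. The other 18 called members had differences between -0.55 and 0.55.

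Among the members called at smaller sizes, Mrpl27, counterpart of a bacterial protein at the peptidyl transferase centre, was at 4.37 and 4.46 in wild type, 4.97 in exercised and 4.63 in sedentary SPORTS muscle (0.55 ± 0.08, adjusted p = 0.0208). Mrps24, a small-subunit protein, was at 3.47 and 3.52 in wild type, 4.01 in exercised and 3.62 in sedentary SPORTS muscle (0.51 ± 0.07, adjusted p = 0.0181). Mrps35, found only in mitochondria, was at 1.83 and 1.89 in wild type, 1.30 in exercised and 1.80 in sedentary SPORTS muscle (-0.55 ± 0.07, adjusted p = 0.0159). In all 3 the exercised array stood farthest from wild type. Mrpl14 was also lower (-0.52 ± 0.06, adjusted p = 0.0151), and Mrpl23, beside the exit of the tunnel, higher (0.46 ± 0.06, adjusted p = 0.0188).

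By position in the ribosome, the central protuberance, a knob on top of the large subunit, had 5 of its 6 measured members called, and they did not go one way. Mrpl38 was higher, at 1.27 and 1.26 in wild type, 1.80 in exercised and 1.32 in sedentary SPORTS muscle (0.53 ± 0.06, adjusted p = 0.0147). Mrpl18, Mrpl40 (-0.51), Mrpl46 (-0.34) and Mrpl48 (-0.28) were lower. Mrpl58, a peptidyl-tRNA hydrolase built into the ribosome, was not called and sat at 4.44 and 4.36 in wild type, 4.50 in exercised and 4.31 in sedentary SPORTS muscle. The calls of Mrpl46 and Mrpl48 were lost on the array median (adjusted p up to 0.216 and 0.487 over the alternatives), and that of Mrpl40 rested on 1 of its 2 probes, the other differing by 0.02. Of the 3 stalk genes measured 0 were called in limma (1 at an unadjusted p below 0.05). Of 5 genes beside the tunnel exit 2 were, Mrpl23 higher and Mrpl47 lower. Of the 10 alternatives, 8 kept the call of Mrpl23 (adjusted p up to 0.0615) and 5 that of Mrpl47 (up to 0.151). A further stalk gene and a further exit tunnel gene were not analysed here. Over all genes the share called in this contrast was 53.3%, and lists this small were not tested against it. Mrpl45, which ties the ribosome to the inner membrane, was at 4.10 and 4.12 in wild type, 4.07 in exercised and 4.26 in sedentary SPORTS muscle.

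By subunit, 17 of 42 Mrpl and 5 of 24 Mrps genes were called, or 17 of 44 and 5 of 22 with Mrps18a and Mrps30 counted in the large subunit. The shares by symbol, 40.5% of Mrpl and 20.8% of Mrps genes, both lay below the 53.3% of all genes, with the differences not tested. The shares in this paragraph are those of the main fit. On the array median, and with a variance trend, the share of all members did not lie below that of all genes. The median log2 difference was 0.10 for Mrpl and 0.11 for Mrps genes, and 0.00 over all genes. Genes with a bacterial counterpart had 10 of 36 called, 7 higher and 3 lower, and those without one 11 of 27, 5 higher and 6 lower. Those shares, 27.8% with and 40.7% without a bacterial counterpart, also lay below that of all genes. Over all members the median difference was 0.10 here, 0.09 in the sedentary contrast (all genes -0.01) and 0.06 in the 2 against 2 fit (all genes 0.00). Relative to the median of the genes tested, the members' median in the exercised contrast was higher by 0.09 with the main scaling and the other scalings by 1 value per array. It was higher by 0.0074 after quantile normalization and by 0.05 relative to genes above background on all arrays, and differed by -0.08 from the median of all genes with no filter on dim genes.

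Exercised against sedentary SPORTS muscle is the comparison that varies exercise within the mutant, with 1 array on each side, so no test was made. The labels name no muscle for either array, so exercise, the animal and the muscle taken cannot be told apart. None of the 66 members differed 2-fold, against 21.9% of all genes tested and 17.6% of the 11805 genes above background on all 4 arrays. That count was 0 under every alternative run. The differences ran from -0.78 (Mrpl52) to 0.61 (Mrpl3), with 38 genes higher and 28 lower on the exercised array. That split turned with the scaling, to 49 and 17 on the array median, 23 and 43 on the 75th percentile over probes above background on all arrays, 27 and 39 after quantile normalization and 31 and 35 after normexp. Their median size was 0.19, against 0.44 over all genes and 0.40 over genes above background on all arrays. Mrpl3, Mrpl52 and Mrpl48 passed 1.5-fold, 4.55% of members, where the share over all genes was 39.9%. The median difference was 0.04 over the members and 0.03 over all genes.

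At the upper end, Mrpl3 was followed by Mrps15 (0.49), Mrpl38 (0.48), Mrps21 (0.42), Mrps24 (0.38) and Mrpl27 (0.34). At the lower end, Mrpl52 was followed by Mrpl48 (-0.60), Mrpl40 (-0.51), Mrps35 (-0.50), Mrpl49 (-0.49) and Mrps26 (-0.42). Mrps15, counterpart of a bacterial protein that binds the small ribosomal RNA early in assembly, was at 1.30 and 1.13 in wild type, 1.67 in exercised and 1.18 in sedentary SPORTS muscle. Its sedentary value lay within the wild-type pair. Mrpl48 was at 4.31 and 4.32 in wild type, 4.03 in exercised and 4.64 in sedentary SPORTS muscle, so that the SPORTS arrays lay on opposite sides of wild type.

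**Figure D4:**
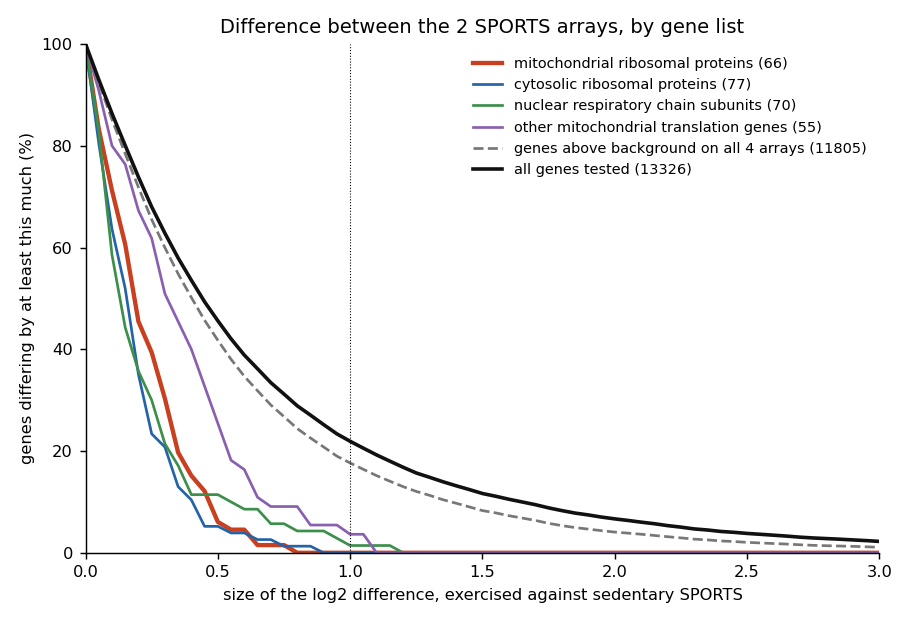
Share of genes (%) whose size of log2 difference between the exercised and the sedentary SPORTS array reaches the value on the horizontal axis, with the dotted line at 2-fold. The members (red) reach 0 before the line, as do the cytosolic ribosomal proteins, while 21.9% of all genes tested lie beyond it.

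Other gene groups for ribosomes and respiration can be set beside the members. Of 77 cytosolic ribosomal protein genes 0 differed 2-fold between the SPORTS arrays, with a median size of 0.15, and of 70 nuclear genes for respiratory chain subunits 1 did, with a median size of 0.12. The fibre markers differed by far more. All 9 fast fibre markers were at least 2-fold higher in exercised muscle (median 4.63), and 8 of 9 slow fibre markers at least 2-fold lower (median -2.31).

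**Figure D5:**
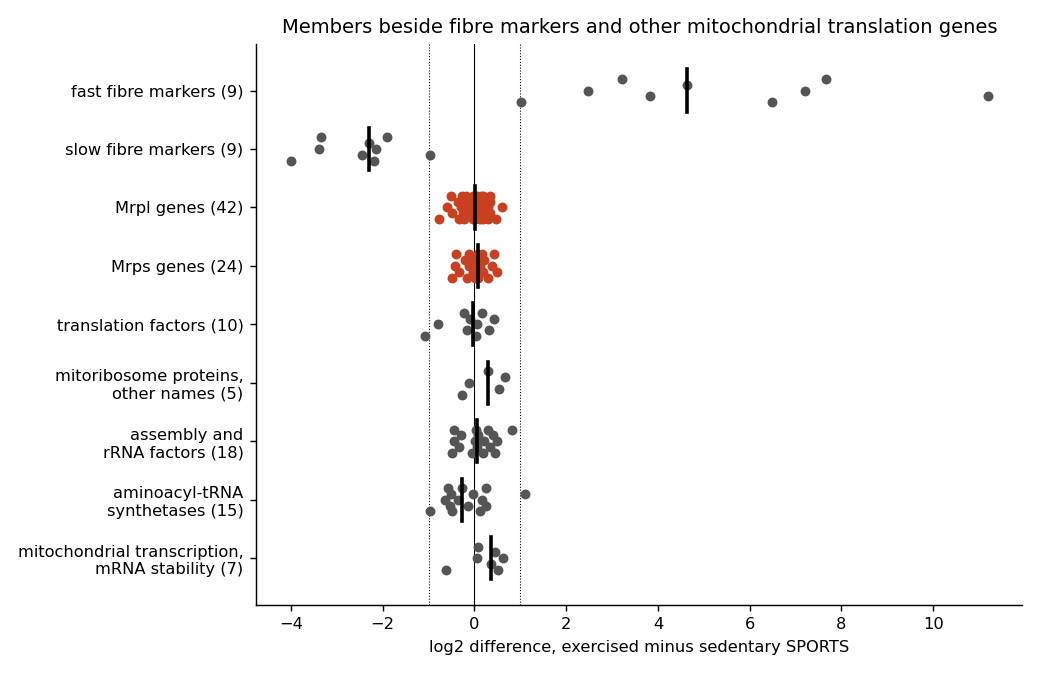
Log2 difference of each gene between the exercised and the sedentary SPORTS array, by list, with the number of genes in brackets, a black bar at the median and dotted lines at 2-fold. The Mrpl and Mrps genes (red) lie between -0.78 and 0.61, the fast fibre markers have a median of 4.63 and the slow fibre markers of -2.31.

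The rest of the mitochondrial translation pathway was taken from 5 lists, of whose 70 genes 55 were tested. Over all genes the share called in the sedentary contrast was 6.27%, and the lists were not tested against it. In the sedentary contrast 0 of 55 were called in limma (19 at an unadjusted p below 0.05), and in the exercised contrast 24 (43.6%), 12 higher and 12 lower, against the 53.3% of all genes. Mitoribosome proteins with other names had 3 of 5 called, all higher. Gadd45gip1, a large-subunit protein, was at 3.39 and 3.40 in wild type, 4.47 in exercised and 3.80 in sedentary SPORTS muscle (1.07 against wild type on the exercised array). Ptcd3, of the small subunit, differed by 1.07 and Chchd1, also of the small subunit, by 0.68. Dap3, a GTP-binding protein of the small subunit, was not called (-0.23).

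Of 10 translation factors 4 were called. Mtif3, initiation factor 3, was at 0.37 and 0.31 in wild type, -0.42 in exercised and 0.66 in sedentary SPORTS muscle, more than 2-fold apart between the SPORTS arrays (-1.08). Mtfmt, which formylates the initiator tRNA, was also lower (-0.64), and Mtrfr (0.49) and Guf1 (0.48) were higher. The elongation factor Tufm was at 5.07 and 5.01 in wild type, 5.19 in exercised and 5.14 in sedentary SPORTS muscle and was not called. Of 18 assembly and ribosomal RNA factors 4 were called, Malsu1 higher (0.56) and Ngrn (-0.89), Mrm3 (-0.59) and Mterf4 (-0.32) lower.

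The aminoacyl-tRNA synthetase list, with the amidotransferase that charges glutamine tRNA, had 9 of 15 called, 3 higher and 6 lower. Gatc of the amidotransferase was higher by 1.04, and it was also more than 2-fold higher than on the sedentary SPORTS array. Sars2, which charges serine tRNA, was lower by -1.09 and Rars2, for arginine tRNA, by -0.74. Of 7 genes for mitochondrial transcription and mRNA stability 4 were called: Slirp (0.63), Mterf1 (0.51) and Tfb2m (0.49) were higher and Tefm (-0.57) lower. Tfam, which packages mitochondrial DNA and starts its transcription, was not called (-0.08).

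Of the 11 members with 2 probes, 8 had a second probe that passed the background filter. Between the SPORTS arrays, 6 of these 8 second probes were within 0.25 of the chosen one. The probes of Mrpl35, a large-subunit protein, went opposite ways in the exercised contrast, by 0.21 on the chosen and -0.57 on the other probe. Those of Mrpl17 did so in the sedentary contrast, by -0.20 and 0.50. The RefSeq table also names 40 pseudogenes of these genes, 9 of them of Mrpl30, and whether they reach a probe was not tested.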

How the data were processed

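RNA of 4 muscle samples was labelled with Cy3 from 100 ng and hybridised to one-colour Agilent arrays, per the labels' protocols. Per the file headers, the 4 arrays shared 1 slide and 1 scan, which Agilent Feature Extraction 10.7.1.1 quantified. The main values were the deposited processed signal, an intensity that is background-subtracted, per the file headers, and not scaled between arrays. The median spot signal and local background, also deposited intensity values, served for normexp (offset 50). The authors' value table holds log2 values centred on each probe's median, with column medians of 0.02, -0.02, 0.17 and -0.15. Its differences between arrays followed the scanner values with r = 1 over 30015 probes. Its median offset from the scanner differences against wild-type array 1 was 0.019 (wild-type array 2), 0.340 (exercised) and -0.022 (sedentary). The arrays' 75th percentiles, on the log2 scale, were 10.099 and 10.079 in wild type, 9.755 in exercised and 10.118 in sedentary SPORTS muscle. The value table is thus close to the main scaling. It served as an alternative but is not an independent one, and its normalization is not described in the sources used here.

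Control spots and outlier flags were left out, repeat spots averaged, and log2 values set relative to the array's 75th percentile. Accessions matched 59.4% of probes to 1 symbol. The probe with the highest mean stood for a gene, and genes well above background on at least 2 arrays were tested. Two-sided p-values came from the moderated tests (eBayes) of limma 3.58.1 under R 4.3.3. These draw each gene's spread towards a value estimated from all genes tested. Benjamini-Hochberg adjustment ran over all 13326 genes, and genes were called below 0.05. The script was tested on simulated data. A ± is the standard error of the fit after moderation, so in the 3-group model it is not a gene's own spread alone. In the 3-group model the lone SPORTS arrays are assumed to vary like the wild-type pair. The number of arrays limits the precision.

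Members, lists and the naming rule were chosen with earlier results of these data known. The rule took, per comparison, the 6 highest and 6 lowest members and the 10 called members of lowest p. It also took a set of structural genes, the brightest and dimmest probes and the extremes of each pathway list. Not every gene that it took is given in the text. Genes named beyond it (Mrpl1, Mrpl35, Tufm, Mrpl30 for its pseudogenes and those named for a motif) were chosen after their values were seen. Alternatives were 3 other scalings, normexp, the value table, 2 other filters, a floor on dim values, a variance trend, the mean over probes and leaving out each array.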

Additional observations from a re-analysis of the deposited data

How the results depend on the processing

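With 1 array per SPORTS group, exercise, the individual animal and the muscle taken cannot be told apart, and calls in the 3-group model rest on the spread of 1 wild-type pair. Leaving out a wild-type array leaves that model no residual degree of freedom and no test. No paired analysis was possible because each SPORTS group has 1 array and replicate numbers were given in accession order. The 1027 values of single genes followed under alternatives do not cover every member in every comparison. Of these 0 changed direction, and 890 kept their direction and side of the threshold (or, with no test, moved by less than the wild-type spread). Another 58 dropped below the threshold, 30 rose above it and 49 untested values moved by more than that spread. Other members did change direction between the SPORTS arrays. With the main scaling 38 were higher on the exercised array, and 23 on the 75th percentile over probes above background on all arrays. The cause of each change below was not tested.

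Medians of log2 differences below are given for all members, then Mrpl, then Mrps genes, then the 5 pathway lists together. Scaled on the array median, they were 0.19, 0.18, 0.24 and 0.074 for SPORTS against wild type (2 against 2). For the exercised array against wild type they were 0.32, 0.32, 0.34 and 0.18, and for exercised against sedentary SPORTS 0.23, 0.20, 0.26 and 0.24. Scaled on the 75th percentile over probes above background on all arrays, they were, in the same order, -0.028, -0.031, 0.030 and -0.14, then -0.049, -0.049, -0.032 and -0.19, then -0.085, -0.11, -0.051 and -0.072. After quantile normalization, they were -0.020 and -0.034 for members and Mrpl genes in SPORTS against wild type. There the exercised array against wild type gave -0.024, -0.045 and -0.0066 for members, Mrpl and Mrps genes, and exercised against sedentary SPORTS gave -0.056, -0.10 and -0.036. The sign of the members' median thus turned with the scaling.

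Members called in the exercised contrast numbered 40 on the array median (60.6%, all genes 60.6%), 39 with a variance trend (59.1%, all genes 58.8%) and 4 without the filter on dim genes (6.06%, all genes 19.5%), where pathway genes called numbered 12. In the sedentary contrast, 8 members and 8 pathway genes were called with normexp (all genes 18.7%). The counts were 9 and 10 over genes above background on all arrays (all genes 18.4%), and 12 and 13 with a variance trend (all genes 21.1%). Without the filter on dim genes 0 members were called there (all genes 0%). Pathway genes called there numbered 4 with a floor on dim values (all genes 10.6%). They also numbered 4 with the 75th percentile over probes above background on all arrays (all genes 8.6%). Leaving out each array in turn, 0 members were called in SPORTS against wild type without a wild-type array (all genes 0%). The count was 22 without the sedentary SPORTS array (33.3%, all genes 53.3%) and 4 without the exercised one (6.06%, all genes 6.27%). Each of these fits left 1 array in a group and took its spread from the other pair. Members whose SPORTS and wild-type arrays did not overlap ranged from 44 without wild-type replicate 2 (66.7%, all genes 54.1%) to 60 without the sedentary SPORTS array (90.9%, all genes 92.2%), and the pathway median of SPORTS against wild type from -0.058 to 0.017.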
